A study of Mus musculus with 2 samples.

Results

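Rag-expressing thymocytes were 474 of the 28926 cells in a single-cell RNA study of mouse thymus, 445 from wildtype (WT) mice and 29 from Mgl2DTR_eGFP mice. A cell was a member when its own hashtag call was B6WT or Mgl2DTR and it held at least 1 UMI (unique molecular identifier, a counted transcript molecule) of Rag1 and Rag2 together, at least 3 UMIs of the CD3 genes Cd3d, Cd3e and Cd3g together, no Siglech UMI, and at most 1% of its UMIs from the class II genes Cd74, H2-Aa and H2-Ab1. The members were thus chosen by the measured UMIs of those genes, whose levels are given only as a description. The single-hashtag cells numbered 19019, of which 11586 were WT and 7433 Mgl2DTR.

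The study sorted CD11c- and CD11b-stained live cells from the thymus of 7-week-old mice to follow dendritic cells, after collagenase D digestion and magnetic depletion of CD90.2-positive thymocytes. Mgl2DTR_eGFP mice carry the diphtheria toxin receptor and eGFP under the Mgl2 gene, and cells that make the receptor die when toxin is given. They received 500 ng of toxin and were analysed at 48 h. The labels do not say whether the WT mice received toxin as well. Antibody hashtags marked each genotype, and all cells ran as 1 pool of droplets through the 10x 3′ v3 chemistry. No animals are named and each genotype is 1 hashtagged group within that pool, so there is no test between groups. Every interval below is an exact 95% interval that covers counting error only.

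Mgl2, the targeted locus, was lower in the pool of Mgl2DTR cells. It stood at 109 CPM (counts per 1000000 UMIs) over all WT single-hashtag cells, with 12748 counts, and at 17.9 CPM over all Mgl2DTR cells, with 1282 counts. The members themselves held 5 Mgl2 counts in 4 WT cells and 0 counts in Mgl2DTR, so the locus gives no check of the genotype label within them.

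Thymocytes build their antigen receptors by V(D)J recombination. The RAG1 and RAG2 proteins cut the receptor genes, first at the β, γ and δ loci in cells with neither CD4 nor CD8 (double-negative), then at the α locus in cells with both (double-positive) in the cortex. The enzyme terminal deoxynucleotidyl transferase, made from Dntt, adds bases at the joints, and the non-homologous end joining factors close the breaks. A double-positive thymocyte that receives a selecting signal shuts off Rag, keeps CD4 or CD8, moves to the medulla and turns on genes for exit such as S1pr1.

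The hashtag sequences decided the genotype of each member, so they are shown here as deposited, with all bases in lower case.

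B6WT: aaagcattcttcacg

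Mgl2DTR: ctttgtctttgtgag

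uncategorized: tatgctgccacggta

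The last of these hashtags is called IL4RaKO in the deposited hashtag tables and appears as "uncategorized" in the deposited annotation, and no member carries it as its call. A WT member held a median of 456 UMIs of the B6WT hashtag, 17 of the Mgl2DTR hashtag and 19 of the uncategorized hashtag. An Mgl2DTR member held medians of 19, 448 and 18. The own-hashtag medians of T cells without Rag were higher, 974 in WT and 1037 in Mgl2DTR, and those of class II-rich cells without CD3 reached 1646 and 1637. By median gene UMIs, WT members (2278) were smaller than WT T cells without Rag (3525), but Mgl2DTR members (3673) were not smaller than theirs (3565). Members of both genotypes were smaller than the class II-rich cells. Per 1000 gene UMIs the own hashtag stood at 242 in WT and 235 in Mgl2DTR members, 267 and 291 in the T cells without Rag, and 141 and 147 in the class II-rich cells.

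Rag1 lies at chr2:101638282-101649501 on the minus strand of GRCm38, and Rag2 next to it at chr2:101624718-101632529 on the plus strand. Cd8b1 (chr6:71322788-71337494, plus strand) and Cd8a (chr6:71373427-71379173, plus strand) are neighbours as well. Cd4 is at chr6:124864692-124888221 on the minus strand, Dntt at chr19:41029275-41059525 on the plus strand and Ptcra, which codes for the pre-T cell receptor α chain, at chr17:46755663-46763712 on the minus strand. Genes of this stage are textbook targets of E proteins, the helix-loop-helix factors encoded by Tcf3 and Tcf12. The bases upstream of Rag1 and Ptcra are printed because each holds 2 copies of the E-box letters CAGCTG or CAGGTG, searched on both strands and marked in capitals. The sequences are from RefSeq on GRCm38.p6 and read 5′ to 3′ along the gene, ending at the base before the start that RefSeq annotates, which for Rag1 differs from the GENCODE start given above, for Rag1 at chr2:101649533-101649782 and for Ptcra at chr17:46763713-46763962, both on the minus strand.

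Rag1 upstream: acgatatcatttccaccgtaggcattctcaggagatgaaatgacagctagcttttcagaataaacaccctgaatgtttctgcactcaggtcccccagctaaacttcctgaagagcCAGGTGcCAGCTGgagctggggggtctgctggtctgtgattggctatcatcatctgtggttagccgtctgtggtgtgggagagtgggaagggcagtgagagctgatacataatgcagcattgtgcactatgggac

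Ptcra upstream: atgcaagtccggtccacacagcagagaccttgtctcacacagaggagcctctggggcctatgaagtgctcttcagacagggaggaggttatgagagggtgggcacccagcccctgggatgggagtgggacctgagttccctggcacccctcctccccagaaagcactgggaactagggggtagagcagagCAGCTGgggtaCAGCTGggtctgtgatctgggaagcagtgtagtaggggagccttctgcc

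Of all 32851 upstream windows of this length, 27.7% held at least 1 such match and 5.21% at least 2. Of the 21 windows of genes in the cortical double-positive list used below, 38.1% held at least 1 and 19.0% at least 2. A match is a description of the letters and not a bound site.

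The marker genes of the label held for most WT members and for fewer of the Mgl2DTR members. At least 1 UMI of Cd8b1, the CD8 β chain, was found in 92.4% of the 445 WT members, Cd8a in 86.1% and Cd4 in 59.3%. Both Cd4 and a Cd8 gene were detected in 57.5%, a Cd8 gene alone in 38.9%, Cd4 alone in 1.80% and neither in 1.80% (8 cells). Of the 29 Mgl2DTR members, 44.8% (26.4 to 64.3%) held Cd4 and Cd8, 24.1% a Cd8 gene alone, none Cd4 alone and 31.0% (15.3 to 50.8%, 9 cells) neither. In class II-rich cells without CD3, a population that should lack these T cell genes, Rag1 was detected in 0.574% of WT and 0.478% of Mgl2DTR cells, Dntt in 0.909% and 0.869%, Cd8b1 in 5.69% and 5.26%, and Cd4 in 5.36% and 3.48%. Those cells were deeper, with medians of 11410 and 10730 UMIs against 2278 and 3673 in members. Cd8a was detected in 34.5% and 32.4% of them, as conventional dendritic cells of the thymus make CD8α, so Cd8b1 is the more specific of the pair here.

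Depth sets how often a transcript is seen. WT members ran from 675 to 42847 UMIs and Mgl2DTR members from 977 to 12627, with 2280824 and 126050 UMIs in all, and median mitochondrial shares were 2.30% and 2.35%. When every cell was thinned to 1000 UMIs, leaving out 16 WT and 1 Mgl2DTR members as too shallow, Cd4 with Cd8 was found in 24.7% of 429 WT members (20.7 to 29.1%) and in 17.9% of 28 Mgl2DTR members (6.06 to 36.9%). Neither was found in 17.5% and 53.6% (33.9 to 72.5%). At 1000 UMIs the intervals for both genes together overlap, and those for neither do not. At 2000 UMIs Cd4 with Cd8 was found in 32.3% of 248 WT members (26.5 to 38.5%) and in 0 of 18 Mgl2DTR members (0 to 18.5%). Neither was found in 14.1% (10.0 to 19.1%) and 72.2% (46.5 to 90.3%), and at that depth the genotype intervals do not overlap for both measures. Only members with at least 2000 UMIs enter there, 248 of 445 in WT and 18 of 29 in Mgl2DTR. The 9 Mgl2DTR cells without Cd4 or Cd8 held 2488 UMIs or more, so every Mgl2DTR cell left out held a coreceptor. The values at 2000 UMIs thus also reflect which cells remain.

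Most members held several transcripts of the double-positive stage besides the genes of the rule. Of the 5 genes Cd8b1, Dntt, Arpp21, Aqp11 and Endou, 152 WT members (34.2%) held all 5, 144 held 4, 90 held 3, 41 held 2, 14 held 1 and 4 held none. Among Mgl2DTR members 6 (20.7%) held all 5, 9 held 4, 8 held 3, 3 held 2, 1 held 1 and 2 held none. Thy1, which codes for the depleted surface protein CD90 (chr9:44043384-44048579), was still detected in 83.8% of WT and 72.4% of Mgl2DTR members. The integrin genes behind the sort were scarce in WT members, with Itgax (CD11c) at 10.1 CPM and Itgam (CD11b) at 9.21 CPM.

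The cells nearest the thresholds show what the rule separates. The 50 members with exactly 3 CD3 UMIs had Rag1 at 1655 CPM and Cd8b1 at 1095 CPM, and the 41 cells just outside, with 2 CD3 UMIs, had 1721 and 1303 CPM. The 75 members with exactly 1 Rag UMI were deep cells, with a median of 5130 UMIs, and held Cd8b1 at 521 CPM and Dntt at 491 CPM. The 2160 cells without a Rag UMI held Cd8b1 at 172 CPM and Dntt at 34.2 CPM. The 51 members with class II at 0.5 to 1% had Rag1 at 486 CPM, and the 19 cells at 1 to 1.5%, with a median of 12975 UMIs, had 280 CPM. The CD3 threshold thus cut through cells that look alike in these genes, while the Rag threshold separated cells that differ in Dntt.

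Rag-expressing thymocytes made up a smaller share of the Mgl2DTR cells under each of 3 denominators. They were 3.84% (3.50 to 4.21%) of WT and 0.390% (0.261 to 0.560%) of Mgl2DTR single-hashtag cells, a ratio of 0.102 (0.0672 to 0.148). Among the cells with at least 3 CD3 UMIs they were 14.7% of 3034 in WT and 3.77% of 770 in Mgl2DTR, a ratio of 0.257 (0.170 to 0.374). Among T cells with and without Rag that met the other parts of the rule they were 21.9% of 2030 and 4.80% of 604, a ratio of 0.219 (0.145 to 0.319). The CD90.2 depletion and the CD11c and CD11b gates came before the library, so these are shares of what passed them, and their part in the difference was not tested. The numbers of mice and of cells loaded per genotype are not given, and with 1 hashtagged group per genotype the genotype cannot be told apart from the handling of its cells before pooling.

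**Figure D1:**
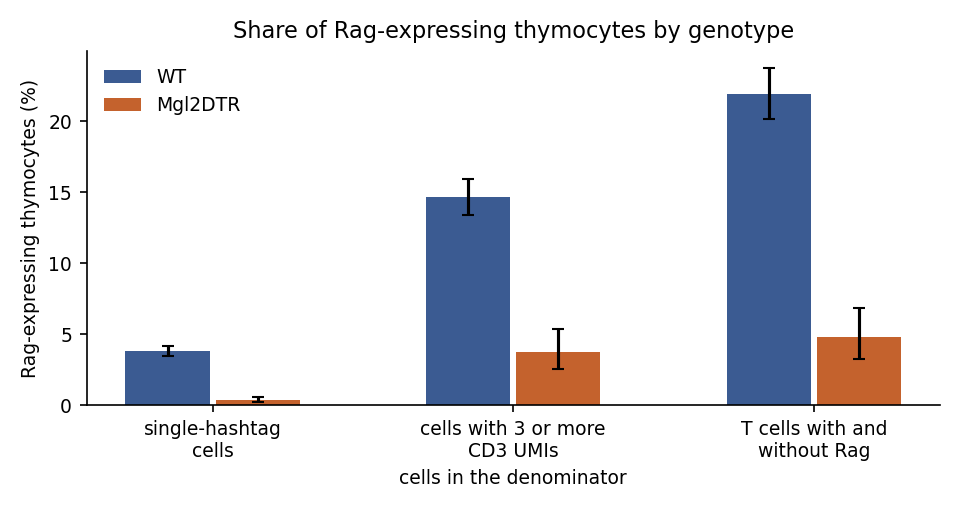
Share (%) of Rag-expressing thymocytes in WT and Mgl2DTR cells under 3 denominators, with exact 95% intervals for counting error as bars. The WT share was the higher under each denominator, 3.84% against 0.390% of single-hashtag cells, and among CD3-positive cells the shares were 14.7% and 3.77%.

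The members differed among themselves along 2 axes, division and the presence of Cd4 or Cd8. With cycling set at 2 or more UMIs of a G2/M gene list, 309 WT members (69.4%) held a Cd4 or Cd8 UMI and did not cycle, 128 (28.8%) held one and cycled, and 8 (1.80%) held none. The same classes held 18 (62.1%), 2 (6.90%) and 9 (31.0%) of the Mgl2DTR members. These classes were drawn after the data had been seen. The cut on G2/M UMIs is a range, with 58 WT cells of the not-cycling class at 1 UMI and 17 of the cycling class at 2. The cycling WT cells were large, with a median of 7964.5 UMIs against 1742, and their median of Rag UMIs per 10000 UMIs was 4.41 against 21.3. At 1000 UMIs per cell, 21.4% (17.7 to 25.6%) of WT and 3.57% (0.0904 to 18.3%) of Mgl2DTR members cycled, the latter 1 of 28 cells. Unthinned, 3 of 29 Mgl2DTR members (10.3%) did, and at 2000 UMIs 2 of 18 (11.1%).

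**Figure D2:**
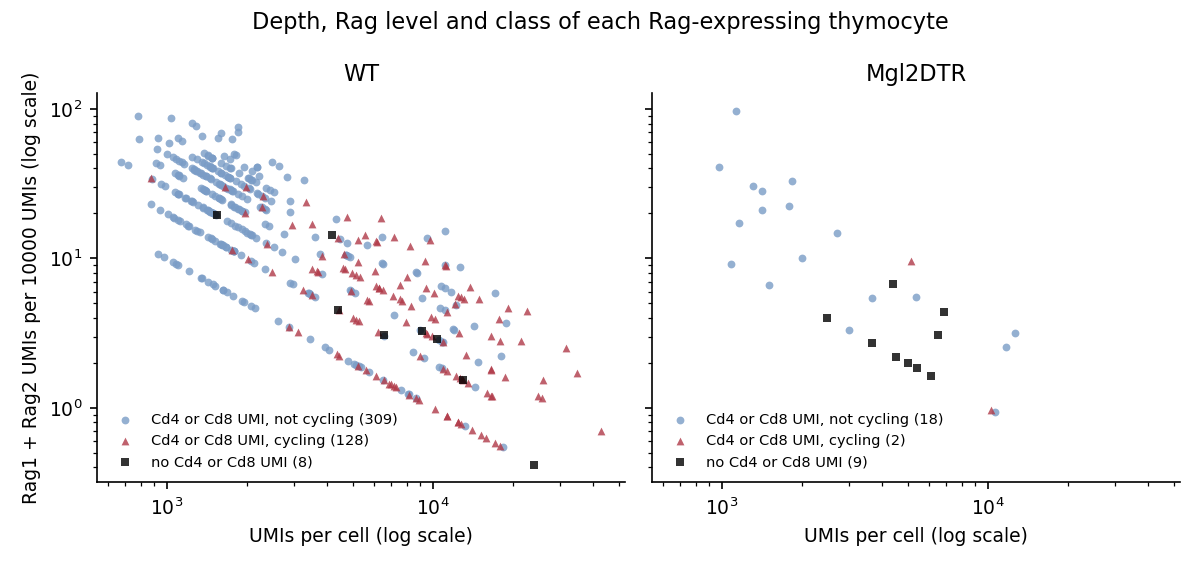
Total UMIs (x, log scale) against Rag1 and Rag2 UMIs per 10000 UMIs (y, log scale) for each member, in a panel for each genotype and coloured by class. The cycling WT cells (median 7964.5 UMIs) lie at larger totals and lower Rag than the cells that did not cycle (median 1742 UMIs).

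Dividing WT members differed from the others in many gene groups, with S phase genes higher and genes of several T cell lists lower. A gene was called higher or lower when its CPM differed by a factor of 1.5 or more, the interval of the ratio did not include 1, and both sides together held at least 50 counts. By that rule 2177 of 5434 genes (40.1%) differed between cycling and not-cycling WT cells, 860 higher (15.8%) and 1317 lower (24.2%) in the cycling cells. Rag1, a gene of the rule and so only described, was at 367 CPM in cycling and 1361 CPM in not-cycling cells, and a required Rag UMI weighs more in the smaller cells. Ccr9, a chemokine receptor of cortical thymocytes, was at 193 and 647 CPM, and Cd8b1 at 624 and 1067 CPM. Dntt, at 489 and 598 CPM, met neither call. Of 14 measured double-positive genes, 9 were lower and 1, Mns1, was higher. Other lists were lower as well: maturation and egress in 10 of 12, interferon in 7 of 9 and T lineage transcription factors in 9 of 14. Of the lists of other cell types, 4 of 4 neutrophil genes were higher, and 3 of 4 macrophage and 4 of 6 activated dendritic cell genes were lower, and their part in the contrast was not tested. Over all WT members, 2 cells held 11670 and 2775 of the 15590 neutrophil counts (92.7%). The neutrophil calls therefore need not hold for dividing cells in general. Hmgb2, a chromatin protein that assists RAG cleavage and is abundant in dividing cells, was at 5772 against 405 CPM, a ratio of 14.3. All 15 measured S phase genes were higher, and Mki67, a gene that helped to define the class, was at 795 and 7.28 CPM. Trdc, the δ constant gene, was at 105 and 8.32 CPM. It was the only measured gene of the 10 in its list and reached the minimum of 50 counts only through the cycling cells, where it is high.

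The bins of Rag UMIs are cut on a value of the rule, so the levels of other genes over them are a description. In the 64 members with 1 Rag UMI Cd8b1 was at 567 CPM, in the 68 with 2 at 652 CPM, in the 128 with 3 or 4 at 782 CPM and in the 185 with 5 or more at 953 CPM. Dntt followed the same order, 446, 503, 569 and 600 CPM, with overlapping intervals between neighbouring bins. Arpp21, an RNA-binding phosphoprotein gene of immature thymocytes, stood at 263, 369, 343 and 553 CPM. The median UMIs of these bins were 5247.5, 2413.5, 2031.5 and 2087, so cells with a single Rag UMI were also the largest and the bins differ in cell size. Rag chose the cells, and its own level over the bins, 142 to 1339 CPM, is not a result.

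**Figure D3:**
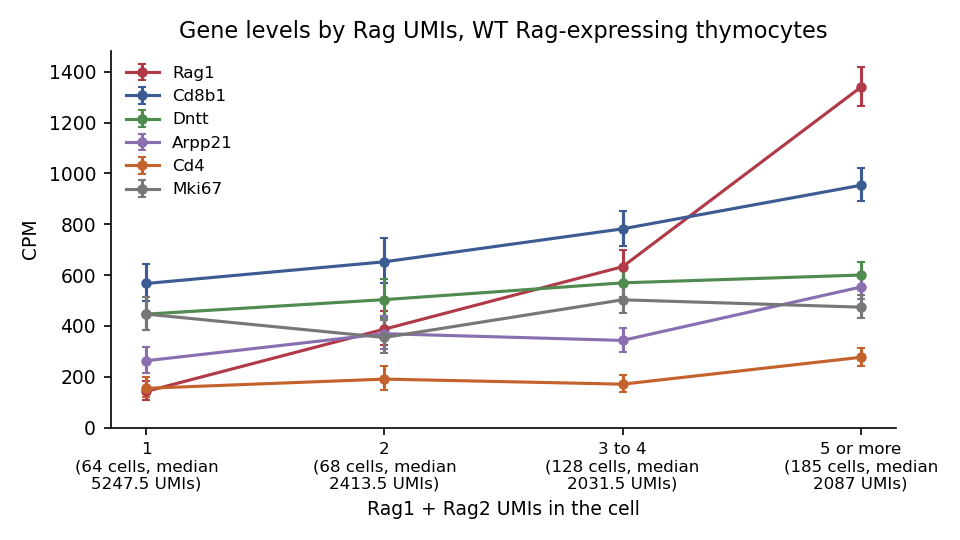
CPM (linear scale) of 6 genes in WT members with 1, 2, 3 to 4 and 5 or more Rag UMIs, with exact Poisson intervals as bars. Cd8b1 goes from 567 to 953 CPM and Dntt from 446 to 600 CPM, while Rag1 is shown only because it defines the bins.

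The closest other cells in the pool were Rag-free T cells, which met the same rule with 0 Rag UMIs: 1585 WT cells (median 3525 UMIs) and 575 Mgl2DTR cells (median 3565 UMIs). The split is the rule's own, so what follows describes the members. In WT 2279 of 9342 genes (24.4%) passed the size rule, 1357 higher (14.5%) and 922 lower (9.87%) in members. In Mgl2DTR 710 of 6117 (11.6%) did, 447 higher (7.31%) and 263 lower (4.30%). The median log2 ratio over all genes was 0.09 in WT and 0.03 in Mgl2DTR. The genes with the lowest ratios in WT members included transcripts of plasma cells and stroma: Igha was at 9.21 CPM in members and 1107 CPM in Rag-free cells, Igkc at 66.6 and 2223 CPM, and Dcn at 0 counts and 40.5 CPM, the last in 4 Rag-free cells. Of the lists of other cell types, 3 of 4 measured NK genes were lower and 1 higher, 4 of 6 monocyte genes were lower and 1 higher, and 6 of 6 activated dendritic cell genes were higher. The part of these cells or transcripts in the contrast was not tested.

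Of 15 measured genes of the cortical double-positive list 14 were higher in WT members than in Rag-free T cells, none was lower, and the median log2 ratio was 2.88. With only cells that held a Cd4 or Cd8 UMI and did not cycle on both sides, 14 of 14 measured genes were higher. In Mgl2DTR 9 of 10 were higher, with a median of 1.89. Dntt was at 549 CPM in WT members and 31.6 CPM in WT Rag-free T cells, 17.4 times as high (15.1 to 20.1), and the ratio in Mgl2DTR was 17.9. Ptcra was at 30.3 and 1.5 CPM. Arpp21 was at 414 and 21.4 CPM. Aqp11, an aquaporin gene, was at 265 and 17.3 CPM and Endou, an endonuclease gene, at 322 and 15.3 CPM. In each of these genes the intervals of members and Rag-free cells lie far apart.

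The coreceptor genes and Ccr9 differed less, and many Rag-free T cells held them too. Cd8b1 was at 791 CPM in WT members and 182 CPM in Rag-free cells, a ratio of 4.34 (4.04 to 4.66), and the Mgl2DTR ratio was 3.07. Cd4 was at 212 and 104 CPM, a ratio of 2.04 (1.82 to 2.29), and in Mgl2DTR its ratio of 1.61 (0.885 to 2.72) met neither call. Ccr9 was at 381 and 226 CPM, a ratio of 1.69. Cd1d1, which presents lipids to NKT cells, was at 18.4 and 16.2 CPM and was the list's only gene without a call. Detection followed the same order: in the Rag-free WT cells Cd8b1 was seen in 28.1%, Cd4 in 31.1% and Dntt in 6.12%, although those cells were the deeper ones.

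Among the genes that cut, add to and close the receptor breaks, 7 of 13 were higher in WT members and 2 lower, with a median log2 ratio of 1.28. Xrcc6, which codes for Ku70 at the broken ends, was at 193 CPM against 29.4 CPM (ratio 6.56), and in Mgl2DTR the ratio was 7.08. Lig4, the ligase of the pathway, was at 40.3 and 7.08 CPM, and Dclre1c, which codes for the hairpin-opening nuclease Artemis, at 32.0 and 13.2 CPM. Xrcc5, the Ku80 gene and partner of Xrcc6, was lower at 12.7 and 20.2 CPM, and so was Atm, a kinase that senses breaks, at 20.2 and 38.0 CPM. The members of this list therefore did not share a direction. The Dntt and Hmgb2 genes are counted in it as well, and Hmgb2 follows division.

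The receptor chains were split by locus. Trac, the α constant gene, was at 223 CPM in WT members and 533 CPM in Rag-free cells, a ratio of 0.418 (0.380 to 0.458), and its Mgl2DTR ratio was 0.297. Trbc1 and Trbc2, the β constant genes, were higher, at 1705 against 918 CPM and at 3525 against 2030 CPM. The β genes are near-identical and reads may have been split between them. Of the 12 measured genes of the receptor complex and its kinases 3 were higher and 6 lower in WT, among the lower Fyn (71.0 and 181 CPM) and Cd28 (194 and 365 CPM). Lck, the kinase bound to CD4 and CD8, was at 417 and 276 CPM.

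Transcription factors of the T lineage also went both ways, with 5 of 14 higher and 3 lower in WT. Tcf7, which codes for TCF-1, was at 1068 and 612 CPM, and Lef1, its relative, at 193 and 449 CPM. Myb was at 409 and 137 CPM, and Tcf12, the E protein gene, at 292 and 113 CPM. Satb1, a chromatin organiser of thymocytes, met neither call at 1382 and 1134 CPM. The Tcf7, Lef1 and Myb calls stood in Mgl2DTR too, with ratios of 1.72, 0.346 and 4.31.

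Genes of receptor signalling and selection were lower in members, 13 of 15 in WT with a median log2 ratio of -1.54 and 6 of 13 in Mgl2DTR. Cd5, which tracks the strength of receptor signalling, was at 72.8 CPM in WT members and 279 CPM in Rag-free cells. Cd69, the early activation marker, was at 51.3 and 123 CPM, and Itm2a at 94.3 and 388 CPM. Genes of maturation and egress were lower in 12 of 16 in WT (median -1.94) and in 11 of 16 in Mgl2DTR (median -1.41). S1pr1, the receptor that guides exit, was at 11.8 and 168 CPM. Klf2, its regulator, was at 70.2 and 345 CPM, and Il7r at 48.7 and 217 CPM. All 8 measured genes of the CD4, CD8 and regulatory T cell lineages were lower in WT. Foxp3, the regulatory T cell factor, had 0 counts in WT members and 10.4 CPM in Rag-free cells. With 3 counts over the group taken as the floor, that is 7.87-fold lower in members.

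The survival genes of the BCL-2 family differed in opposite directions. Bcl2 was at 39.9 CPM in WT members and 245 CPM in Rag-free cells, and Bcl2l1, which codes for BCL-XL, was at 72.8 and 24.7 CPM. Bcl2l11, the gene of the death factor BIM, met neither call at 85.5 and 81.1 CPM. Fkbp5, a glucocorticoid target, was at 99.5 and 35 CPM, and the receptor gene Nr3c1 at 127 and 83.0 CPM, but 2 of the 9 genes of that list were higher and 2 lower. Plxnd1, a guidance receptor of double-positive thymocytes, was at 79.4 and 23.6 CPM. Il4ra, the receptor chain for type 2 cytokines, did not meet a call at 48.2 and 50.7 CPM. Of 17 interferon genes 10 were lower in WT members, among them Isg15 at 101 and 228 CPM.

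Division moved with part of this contrast. All 15 G2/M genes and 11 of 15 S phase genes were higher in WT members than in Rag-free cells, with median log2 ratios of 1.67 and 0.85. Among members and Rag-free cells with under 2 G2/M UMIs no S phase gene was higher and 4 of 12 were lower. In Mgl2DTR, where 2 cells with Cd4 or Cd8 cycled, 5 of 12 G2/M genes were lower in members. Of the 1357 genes higher in WT, 754 were called higher again without cycling cells, 19 turned to lower and 337 no longer had the counts to be measured. Of the 922 lower genes 560 were called again and 53 were not measured.

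**Figure D4:**
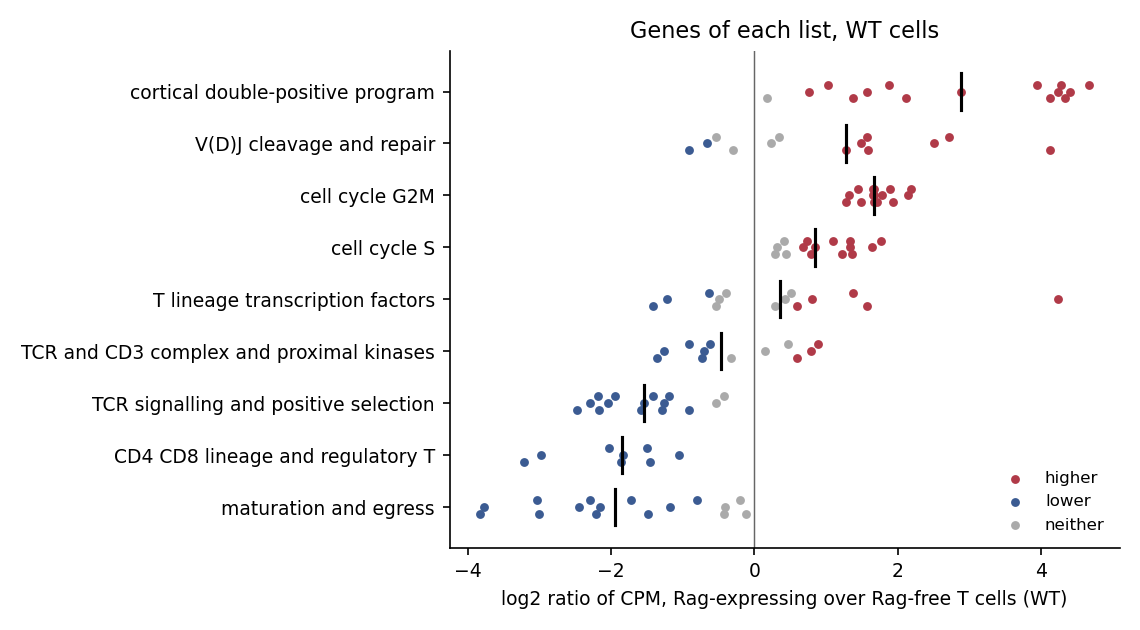
Log2 ratio of CPM, WT members over WT Rag-free T cells, for each measured gene of 9 lists, coloured by call, with the list median as a black bar. The double-positive list lies high (median 2.88) and the maturation list low (median -1.94), while the receptor complex list is spread over both sides.

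Between genotypes 533 of 5711 measured genes (9.33%) differed in members by the size rule, 264 higher (4.62%) and 269 lower (4.71%) in Mgl2DTR. With every member given equal weight by scaling it to a common total, 274 were higher and 674 lower, so the share of higher genes went from 49.5% to 28.9%, and the median log2 ratio from -0.06 to -0.14. That scaling kept the interval widths of the summed counts, so its calls do not carry the counting error of equally weighted cells. Few cells stood behind the calls: the median number of Mgl2DTR cells with a UMI was 9 for the higher and 3 for the lower genes, and 44 and 104 of them had at least 50% of their Mgl2DTR counts in 1 cell. Of the higher genes 50 were also higher in Rag-free T cells and 3 were lower there. Of the lower genes 17 were also lower there and 8 were higher. In Rag-free T cells 744 of 9388 genes (7.93%) differed, 472 higher (5.03%) and 272 lower (2.9%).

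The coreceptor genes were lower in Mgl2DTR members as a whole, which counted 9 cells without them. For Cd8b1 the WT level was 791 CPM (411 cells with a UMI) and the Mgl2DTR level 444 CPM (20 cells), a ratio of 0.562 (0.423 to 0.733). Cd8a was at 639 and 309 CPM, a ratio of 0.484 (0.343 to 0.665), and Cd4 at 212 and 119 CPM, a ratio of 0.562 (0.312 to 0.936). With members scaled to a common total the Cd8b1 ratio was 0.819 and met neither call. Among cells with a Cd4 or Cd8 UMI, a subset that the same genes select, the ratios of Cd8b1, Cd8a and Cd4 were 0.847, 0.730 and 0.847. Among those that also did not cycle, 309 WT and 18 Mgl2DTR cells, they were 0.759, 0.671 and 0.683, and none met the call. All of these ratios were below 1, and since the subset was chosen on the same genes it does not show that the levels were alike.

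Of 14 measured genes of the double-positive list, 6 were lower in Mgl2DTR members and none higher (median log2 ratio -0.41), the coreceptor genes and Endou, Mns1 and Tcf12. Under the common-total scaling 2 were lower. Dntt was at 549 CPM against 738 CPM in Mgl2DTR, Arpp21 at 414 and 516 CPM, and Ccr9 at 381 and 333 CPM, and none of these met a call. In the not-cycling cells with Cd4 or Cd8, 3 of 13 were lower, and over all genes measured there 84 of 3140 (2.68%) were. The 3 were Tcf12 at 361 and 153 CPM, Endou at 401 and 214 CPM, and Themis, which sets the selection threshold, at 501 and 321 CPM. Satb1 was lower in those cells as well, at 1973 and 1206 CPM, and in Rag-free T cells its ratio was 0.623. Tcf7 was at 1207 and 702 CPM in the not-cycling cells with Cd4 or Cd8. The 18 Mgl2DTR cells of that class include 4 large cells (median 11215.5 UMIs) with over 1% of UMIs from lists of other cell types. The part of those 4 cells in these levels was not tested. Rag1, given as a description, was at 782 and 603 CPM in all members.

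Genes of the double-negative stage were higher in Mgl2DTR members, 3 of 4 measured, with a median log2 ratio of 2.51. Il2ra, the CD25 gene, stood at 27.6 CPM over the WT members (38 cells with a UMI) and at 262 CPM over the Mgl2DTR members (8 cells), a ratio of 9.48 (6.02 to 14.7). Hes1, a Notch target, was at 36.4 and 508 CPM, a ratio of 13.95 (9.91 to 19.6), and Notch1 itself at 48.7 and 167 CPM. Tcrg-C1, a γ constant gene, was at 7.45 and 294 CPM, the latter from 5 Mgl2DTR cells. It had 17 WT and 37 Mgl2DTR counts and so reached the minimum of 50 only through the group in which it is high. In Rag-free T cells the Il2ra and Hes1 ratios were 1.24 and 1.36, and the Tcrg-C1 ratio was 3.51. The γ constant genes resemble each other and reads may have been split between them.

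These counts came from few cells, most of them without a Cd4 or Cd8 UMI. Of the 64 Hes1 counts in Mgl2DTR members, 54 came from the 9 cells without Cd4 or Cd8 and 10 from 1 of the 2 cycling cells, and the 18 others held 0. Of the 37 Tcrg-C1 counts, 25 and 12 came from the same classes. Il2ra had 23, 6 and 4 counts in the 9, the 2 and the 18 cells. In WT the 8 cells without Cd4 or Cd8 held 54 of the 83 Hes1 counts and 16 of the 63 Il2ra counts. In WT the other Il2ra counts, 22 and 25, lay in the not-cycling and the cycling cells with a coreceptor. The cells without Cd4 or Cd8 were 1.80% of the WT and 31.0% of the Mgl2DTR members.

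The single cells of that class can be read one by one. Among the 9 Mgl2DTR cells, Hes1 ran from 0 to 17 UMIs, Il2ra from 0 to 8, Dntt from 0 to 14 and Trac from 0 to 2. Of these 9, 6 held Il2ra, 7 a γ or δ constant transcript and 7 Dntt, while 2 held none of Il2ra, Dntt and Ptcra. Of the 8 WT cells 5 held Il2ra, 7 a γ or δ constant transcript and 7 Dntt, and none held Trac. Division differed: 3 of the 8 WT cells had 136 to 151 G2/M UMIs, and the 9 Mgl2DTR cells 0 to 2. Summed over the class, Hes1 was at 738 CPM (WT) against 1198 CPM (Mgl2DTR), Il2ra at 219 and 510 CPM, Dntt at 929 and 1087 CPM, and Cd3g at 1380 and 1907 CPM. Ccr9 was at 95.6 and 44.4 CPM, against 647 and 565 CPM in the not-cycling cells with a coreceptor. In this class, which lacks the coreceptors by definition, Dntt stood above the 598 and 458 CPM of the not-cycling cells with a coreceptor, Ccr9 stood below their level, and most cells held transcripts of the double-negative list.

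Genes of division were lower in Mgl2DTR members. Of 15 measured G2/M genes 14 were lower and none higher (median log2 ratio -2.69), and of 15 S phase genes 5 were lower. Mki67 was at 459 and 79.3 CPM, a ratio of 0.173 (0.0826 to 0.319), with counts in 3 Mgl2DTR cells. Top2a was at 688 and 119 CPM, with counts in 2 Mgl2DTR cells. WT members held Cenpf at 248.6 CPM and Mgl2DTR members had 0 counts. With 3 counts over the group taken as the floor, that is 10.4-fold lower. In Rag-free T cells the Mki67 ratio was 1.26. Only 2 Mgl2DTR cells with Cd4 or Cd8 cycled, so these values describe the presence of few dividing cells among the Mgl2DTR members.

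Immediate early genes, which cell handling can induce, were higher in Mgl2DTR members in 7 of 12, with none lower and a median log2 ratio of 0.66. Junb was at 240 and 960 CPM, a ratio of 3.995 (3.25 to 4.87). Fos was at 85.9 and 373 CPM, a ratio of 4.34 (3.09 to 5.99), and Jun at 77.2 and 254 CPM. In Rag-free T cells 8 of 15 genes of the list were higher, with ratios of 1.96 for Junb, 2.09 for Fos and 1.62 for Jun. In the not-cycling cells with a coreceptor the Junb ratio was 2.10 (1.49 to 2.88) and the Fos ratio 3.37 (1.96 to 5.53). Junb and Fos were thus higher in Mgl2DTR in each of these T cell sets.

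Some maturation genes were higher in Mgl2DTR members, 5 of 14 with none lower (median 0.29), among them Klf2, Il7r, Ms4a4b and Ms4a6b. In the not-cycling cells with a coreceptor 5 of 11 were higher, and over all genes measured there 128 of 3140 (4.08%) were. Klf2 was at 85.3 and 244 CPM there, Ms4a4b at 109 and 290 CPM, and Ccr7, the receptor for entry into the medulla, at 386 and 717 CPM. H2-D1, a class I gene, was at 1191 and 1801 CPM. Outside that list Bcl2 was at 39.9 and 103 CPM in all members, on 91 and 13 counts. The 18 Mgl2DTR cells with a coreceptor that did not cycle include 4 with over 1% of UMIs from lists of other cell types. Those 4 were large, with a median of 11215.5 UMIs against 1810 in the 18, and their part in these levels was not tested.

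**Figure D5:**
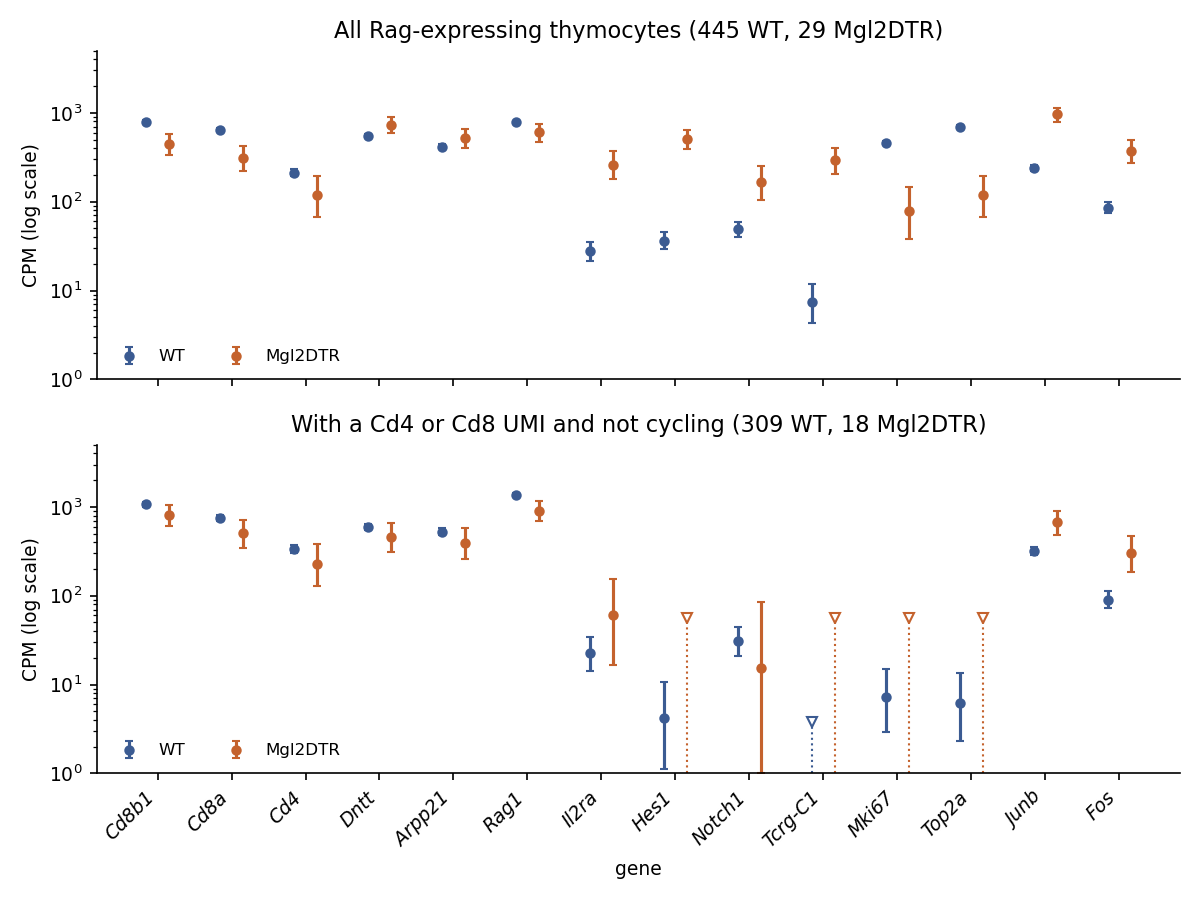
CPM (log scale) of 14 genes in WT and Mgl2DTR members with exact Poisson intervals, in all members (top) and in cells with a Cd4 or Cd8 UMI that did not cycle (bottom), with open triangles for the upper limit at 0 counts. Il2ra, Hes1 and Tcrg-C1 stand apart only in the top panel, and Junb and Fos in both.

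Transcripts of other cell types moved with part of the genotype contrast. The 7 neutrophil genes summed to 6835 CPM in WT members and 516 CPM in Mgl2DTR, with Camp at 1021 and 23.8 CPM. In WT 2 cells held 11670 and 2775 of the 15590 counts (92.7%), and without them the WT level was 513 CPM, so the difference rests on those 2 cells. In Rag-free T cells the list stood at 3744 and 6077 CPM. Without the members in which other-type lists took over 1% of UMIs, S100a8 was at 197 and 291 CPM.

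The activated dendritic cell list, to which Ccl5 belongs, summed to 4978 CPM in WT and 1944 CPM in Mgl2DTR members, and to 2069 and 1641 CPM in Rag-free cells. In 47 WT members it took over 1% of UMIs. In Mgl2DTR 2 cells held 117 and 108 of its 245 counts (91.8%). The monocyte list was at 241 and 1357 CPM, with 110 of its 171 Mgl2DTR counts in 1 cell. The macrophage list was at 417 and 730 CPM, with 72 of 92 in 1 cell. Il1b, at 15.8 and 357 CPM, had all its Mgl2DTR counts in 1 cell. No cDC2 gene but 1 had a count in Mgl2DTR members, and the list held 54 and 2 counts. The plasmacytoid dendritic cell list was at 1217 and 1571 CPM in members and at 448 and 447 CPM in Rag-free cells. Its gene Ly6d held 138 of the 198 Mgl2DTR counts, spread over 18 cells. Ly6d was 12.2 times as high in Mgl2DTR members as in their Rag-free T cells.

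Members with over 1% of UMIs from other-type lists numbered 80 in WT and 4 in Mgl2DTR. The 80 were large cells (median 7875.5 UMIs) with Cd8b1 at 531 CPM and Rag1 at 484 CPM, against 893 and 900 CPM in the 365 other WT members. The 4 had a median of 11215.5 UMIs. Their Cd8b1 was at 271 CPM and Rag1 at 326 CPM, against 516 and 717 CPM in the 25 other Mgl2DTR members. All 4 were among the 18 not-cycling Mgl2DTR cells with a coreceptor. The part of the 80 and the 4 in the results was not tested beyond leaving them out. Without them the genotype ratios were 0.577 for Cd8b1, 11.3 for Il2ra, 14.3 for Hes1, 0.183 for Mki67 and 5.54 for Junb. The direction of these 5 ratios was the same as in all members.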

How the data were processed

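The gene tables hold raw UMI counts, whole numbers per gene and cell, as deposited by the authors for 20451 genes and 28926 cells, and the hashtag tables hold deposited UMI counts of 3 hashtags. The submitters' processing notes name Cell Ranger 6.0.0, Seurat 4.0.4 and the build mm10, and no source used here states the gene annotation. The deposited annotation gave the hashtag call of each cell. Its other 8 columns were not used, and its UMI totals equalled the table sums in every cell. No barcode was shared between the gene tables. Cells with 2 hashtags (9829) or none (78) were left out. Doublets of a single genotype carry a single hashtag and cannot be seen that way, and no doublet caller was run.

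Counts were summed over cells and divided by the total UMIs of the same cells (CPM), with exact Poisson intervals, exact conditional intervals of ratios, and Clopper-Pearson intervals of shares. A gene with 0 counts on one side was set to 3 counts over the group. The size rule was checked on simulated summed counts without variation between cells, so that check does not cover genes whose counts lie in few cells. Thinning drew 1000 UMIs per cell without replacement. No clustering was used. The members and gene lists were chosen with earlier results of these data known, and support nothing on their own. Genes named were any measured list member, the 10 largest ratios each way, and up to 5 examples of a count. Alternatives covered the thresholds, scaling, thinning and count minimum, and those on Cd4 or Cd8, cycling and over 1% of other-type UMIs were chosen after seeing the data. Coordinates are from GENCODE M21. Python 3.11.15 with numpy 2.4.6, scipy 1.17.1, pandas 2.3.3 and matplotlib 3.10.9 was used.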

Additional observations from a re-analysis of the deposited data

Results flagged for a closer look

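Cells outside every comparison also passed the RNA part of the rule, and they stand out as a signal in data that the comparisons left aside. Of the 9829 cells that carried 2 hashtags, 98 passed (0.997%), 77 of them with the B6WT and Mgl2DTR tags together, 16 with B6WT and the third tag, and 5 with Mgl2DTR and the third tag. Their median was 6618.5 UMIs. Among T cells of the rule with and without Rag, those with Rag were 20.8% of the B6WT and Mgl2DTR pairs, 11.3% of the B6WT pairs with the third tag and 4.07% of the Mgl2DTR pairs with it. Of the 78 cells with no hashtag call, 7 passed (8.97%, 3.68 to 17.6%), with a median of 1403 UMIs. No genotype can be given to either set, and they entered no share.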

How the results depend on the processing

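No paired analysis was possible because both genotypes were 1 pool of cells and no replicates are numbered. The ratio of shares ran from 0.0736 (at least 2 Rag UMIs) to 0.144 over most alternatives, was 0.257 over CD3-positive cells, and 0.625 without cells of 2 or more other-type UMIs, which leaves 5 WT and 1 Mgl2DTR members. Genes higher and lower in Mgl2DTR, 264 and 269, were 1 and 1 in those cells, 157 and 178 without cycling cells, 128 and 84 without cycling cells and cells lacking Cd4 and Cd8, and 102 and 179 at 200 or more summed counts. The lower genes alone were 171 at 2 or more Rag UMIs, 144 with a Cd4 or Cd8 UMI and 674 with cells scaled to the same total. Genes higher and lower against Rag-free T cells, 1357 and 922, were 14 and 56 without cells of 2 or more other-type UMIs, 681 and 525 at 200 counts, and 641 and 537 at a ratio of 2. Cells with Cd4 and Cd8 were 57.5% (WT) and 44.8% (Mgl2DTR) unthinned and 32.3% in WT at 2000 UMIs, with 0% of 18 in Mgl2DTR; cells with neither were 1.80% and 31.0% unthinned; WT cycling cells were 29.7% unthinned and 41.9% at 2000 UMIs. In the 5 and 1 members left with under 2 other-type UMIs these shares were 20%, 0% and 0% in WT and 0% in Mgl2DTR. The values at 2000 UMIs cover only the 248 WT and 18 Mgl2DTR members that deep. The other-type UMIs include those of Ly6d, at 1095 CPM in Mgl2DTR members and 89.6 CPM in Mgl2DTR Rag-free T cells. Leaving out cells by them thus does not single out transcripts from other cells. Ratios that crossed 1 were, between genotypes, Runx1 (0.931 at 2 Rag UMIs, 0.779 with Cd4 or Cd8, 0.470 also without cycling), S100a8 (1.48 without cells over 1% other-type UMIs), and Cd3g (0.815) and Bst2 (0.749) in not-cycling cells with Cd4 or Cd8. Against Rag-free cells they were S100a8 (0.940 without cells over 1% other-type UMIs, 0.208 without cycling cells, 0.263 also with Cd4 or Cd8, 0.911 scaled), and, in the 5 members with under 2 other-type UMIs, Ccr9 (0.832, on 2 member counts). In those 5 members Cd5 (1.15), S1pr1 (1.45) and Bcl2 (1.15) crossed 1 only because 0 member counts were set to the floor of 3. Those floored ratios do not show the genes higher in members. Apart from the floored ratios, the cause was not tested, except that fewer cells or genes enter most of these alternatives. With 126050 UMIs in all Mgl2DTR members, a gene under about 3 counts there is below what this depth can show.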
